A study of Mus musculus with 6 samples.

Results

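The genes described are *Trp53*, which encodes the transcription factor p53, and 9 genes of its circuit: *Mdm2* and *Mdm4*, *Ccng1*, *Bbc3*, *Pmaip1*, *Trp53inp1*, *Phlda3*, *Sesn1* and *Zmat3*. They were chosen by name, as well-known genes of the pathway, with earlier results of these data known, and all 10 were among the 12101 genes of the expression table. RNA was sequenced from megakaryocyte–erythroid progenitors (MEPs), bone marrow precursors of the red cell and platelet lineages. All 6 libraries came from adult *Nanog*-tg mice of the CD-1 strain, in which the reverse tetracycline transactivator drives a *Nanog* transgene when doxycycline (dox) is given. The dox-treated group (n = 3) received dox for 5 days in the drinking water, and the untreated group (n = 3) carried the same transgene without dox. The comparison asks how the transcriptome of MEPs differed when *Nanog*, a transcription factor of pluripotent cells, was switched on. No mice without the transgene were given dox, so the effects of dox and of *Nanog* cannot be told apart. The sources used here do not say whether a replicate was 1 mouse or a pool, so the p-values measure the spread between these libraries only.

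In unstressed cells p53 is kept low by Mdm2, which marks it for degradation, and by Mdm4, which binds it and blocks its activity. DNA damage, ribosome defects and oncogene activity free p53 from these inhibitors, and it then switches on genes for cell cycle arrest, cell death, DNA repair and metabolism, among them *Mdm2* itself. p53 is controlled largely at the level of the protein, which RNA sequencing does not measure. In erythroid progenitors its activation is best known from ribosome defects, in which it contributes to anemia.

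The libraries held 11264803 to 16153600 reads on the genes of the table, and 1 read was worth between 0.0642 and 0.0910 CPM (counts per 1000000 reads, scaled by the normalized size of each library). The targeted gene matched the labels, with at least 15959 reads of *Nanog* in each dox-treated library and at most 13 in each untreated library. Dox-treated replicate 3 stood apart from its group: 12.0% and 11.7% of the genes tested differed by more than 1 on the log2 scale between it and dox-treated replicates 1 and 2, against 2.56% between those 2 libraries and 3.24% to 7.33% between untreated pairs. Counts of called genes in each p53 list are therefore also given without it. Of all 12088 genes tested, 4.59% were called higher and 3.18% lower with dox at an adjusted p under 0.05 in limma, and without dox-treated replicate 3 the shares were 14.9% and 14.0%. All 12 erythroid markers looked for were listed, and *Epor*, which encodes the erythropoietin receptor, had at least 1253 reads in every library. The summed level of the 12 was 1602 to 2299 CPM with dox and 2492 to 2964 CPM without, and 2 of the 12 were called lower (6 without dox-treated replicate 3). Of the 12, 5 had a positive log2 fold change, 2 of them at an unadjusted p under 0.05 and none called. Summed granulocyte-monocyte markers were at 506 to 752 CPM with dox and 2311 to 5324 CPM without, with 8 of 12 called lower, among them *Elane*, *Cebpe* and *Prtn3* (9 without dox-treated replicate 3). For 9 listed mast cell markers the sums were 1077 to 1261 CPM and 680 to 1012 CPM, with 3 called higher, *Cpa3*, *Ms4a2* and *Slc18a2* (5 without dox-treated replicate 3). Of these 9, 2 had a negative log2 fold change, and 0 were called lower. Of 10 listed megakaryocyte markers, 3 were called higher and 1 lower (5 and 1 without dox-treated replicate 3), and their sums were 162 to 482 CPM and 99.98 to 153 CPM. Of these 10, 3 had a negative log2 fold change. Much of the sums with dox came from 1 marker. It stood at 319, 314 and 66.9 CPM in dox-treated replicates 1, 2 and 3, and at 24.1 to 39.3 CPM in untreated libraries. None of 9 listed stem cell and lymphoid markers was called by limma, with 3 higher at an unadjusted p under 0.05 (15.6% of all genes) and 3 called higher without dox-treated replicate 3, and their sums were 137 to 304 CPM and 49.7 to 102 CPM. The part of these cell type differences in the results below was not tested. In bulk RNA, fewer cells that express a gene and less RNA per cell cannot be told apart.

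p53 binds a response element made of a pair of half-sites of 10 bases, each with a core of 4 bases that begins with C and ends with G. The NCBIM37 genome was searched for it within 2500 bases on each side of each gene's start, with no spacer between the half-sites and both core letters kept. The start was the outermost one annotated for the gene, which need not be that of its main transcript. The element is its own reverse complement, so both strands were searched. An element with 0 mismatches stood in 0.0995% of the windows of 12063 listed genes, with at most 1 mismatch in 0.904%, and with at most 2 in 5.43%. Of the 10 genes, *Zmat3* had an element with 0 mismatches and *Ccng1* had 2 elements with 1 mismatch each. Their sequences are shown because they are the closest matches among the 10 genes, beside that of *Cdkn1a*, the gene of the cell cycle inhibitor p21 and the best-known p53 target. Capitals mark the 4-base core of each half-site, and the letters are those of the gene's own strand.
Zmat3, chr3:32263253-32263272, minus strand, in an intron 1328 bases after the gene start: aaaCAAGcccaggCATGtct
Ccng1, chr11:40568438-40568457, minus strand, in an intron 356 bases after the gene start: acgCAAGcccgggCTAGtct
Ccng1, chr11:40568964-40568983, minus strand, 170 bases upstream of the gene: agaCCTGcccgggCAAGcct
Cdkn1a, chr17:29227873-29227892, plus strand, 51 bases upstream of the gene, 1 mismatch: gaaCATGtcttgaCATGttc
Among the remaining 8 genes, *Pmaip1* had 1 element with 2 mismatches. A match is a run of letters and not a measured binding site, and a window without a match shows only that these letters are not in it.

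Of the 10 genes, 1 was called higher in dox-treated MEPs and 0 were called lower at an adjusted p under 0.05 in limma, beside 4.59% and 3.18% of all genes tested. At an unadjusted p under 0.05, 2 were higher and 1 lower, beside 15.6% and 13.6% of all genes. The gene called was *Trp53inp1*, which encodes a nuclear protein that takes part in p53-dependent cell death and in autophagy. The median log2 fold change of the 10 genes was 0.15, against -0.03 for all genes tested, and the values ran from -0.40 for *Trp53* to 1.09 for *Trp53inp1*. The dox-treated libraries all lay above the untreated libraries for *Trp53inp1*, *Bbc3* and *Zmat3* and all below them for *Trp53*, while the groups overlapped for the other 6 genes. Such separation upward was found for 17.7% of all genes tested and downward for 18.2%. Without dox-treated replicate 3, *Trp53inp1* and *Bbc3* were called higher and *Ccng1* lower, where 14.9% of all genes were called higher and 14.0% lower.

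**Figure D1:**
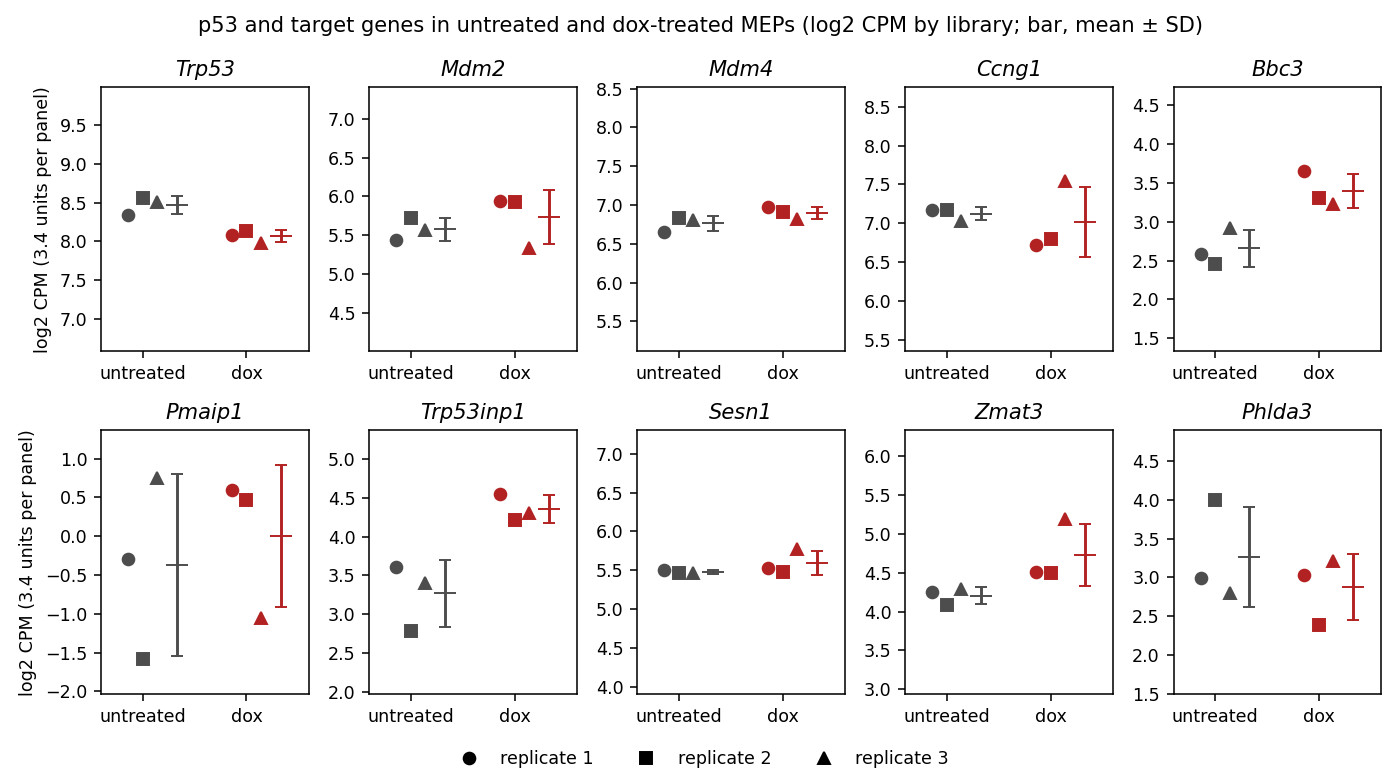
Level of each gene in each library, in log2 CPM, with 1 panel per gene and the same span of 3.4 log2 units in every panel; points are libraries, marked by replicate, and bars give the mean ± SD of 3 libraries. The dox-treated points of *Trp53inp1*, *Bbc3* and *Zmat3* lie above all untreated points, and those of *Trp53* lie below them.

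*Trp53* itself, at chr11:69393861-69405375 on the plus strand, had 271, 282 and 253 CPM in dox-treated replicates 1, 2 and 3 and 322, 379 and 364 CPM in untreated replicates 1, 2 and 3. The highest dox-treated library was below the lowest untreated one. The means were 268 ± 14.7 CPM (SD, n = 3) with dox and 355 ± 29.2 CPM without. On the log2 scale the difference was -0.40 (95% confidence interval -0.68 to -0.13, SE 0.11), which missed the threshold (adjusted p = 0.0821, limma). The two-sided exact permutation test gave p = 0.1, the smallest value that 3 libraries against 3 allow. The difference was -0.36 without dox-treated replicate 3 (adjusted p = 0.0612, limma). It was called lower with a mean-variance trend (-0.40, adjusted p = 0.0374, limma) and with array quality weights (-0.36, adjusted p = 0.0181, limma), and over all 14 alternatives the adjusted p in limma ran from 0.0181 to 0.321. The gene had at least 3682 reads in each library. *Wrap53*, on the opposite strand, lies 103 bases from *Trp53* and shares no exon bases with it in this annotation. A pseudogene of *Trp53* and one of *Mdm4* are annotated, and reads that match a gene and its pseudogene equally well could be split between them.

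Of the inhibitors of p53, neither was called. *Mdm2*, at chr10:117125944-117147814 on the minus strand, encodes the ubiquitin ligase that degrades p53 and is a p53 target. It was at 61.4, 61.0 and 40.3 CPM in the dox-treated replicates and at 43.3, 52.8 and 47.4 CPM in the untreated replicates. Dox-treated replicates 1 and 2 were above all untreated libraries, and dox-treated replicate 3 was below all of them. With all libraries the log2 fold change was 0.16 (SE 0.20, interval -0.33 to 0.65, adjusted p = 0.620, limma). Leaving out dox-treated replicate 3 raised it to 0.36, with an adjusted p of 0.0712 in limma. *Mdm4*, at chr1:134886422-134921943 on the minus strand, encodes a relative of Mdm2 that masks the activation domain of p53. Its levels were 126, 120.0 and 112 CPM with dox and 101, 114 and 112 CPM without, and dox-treated replicate 3 lay within the untreated range. The difference was 0.13 on the log2 scale (SE 0.11, interval -0.13 to 0.39, adjusted p = 0.437, limma).

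*Ccng1*, at chr11:40562054-40568813 on the minus strand, encodes cyclin G1, which acts with a phosphatase in the feedback between p53 and Mdm2. It was measured at 106, 111 and 186 CPM in the dox-treated replicates and at 144, 144 and 130.0 CPM in the untreated replicates. Dox-treated replicates 1 and 2 were below all untreated libraries and dox-treated replicate 3 was above all of them, so the sign of the group difference depended on the library left out. With all 6 libraries it was -0.11 on the log2 scale (SE 0.23, interval -0.68 to 0.47, adjusted p = 0.787, limma). Without dox-treated replicate 3 it was -0.37 and was called (adjusted p = 0.0456, limma). Without dox-treated replicate 1 it was 0.041 (adjusted p = 0.943, limma), and without dox-treated replicate 2 it was 0.0074 (adjusted p = 0.989, limma).

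Among the genes for cell death, *Trp53inp1* carried the one call. The gene lies at chr4:11083578-11101526 on the plus strand, and 318, 248 and 308 reads were assigned to it in the dox-treated replicates against 157, 93 and 116 in the untreated replicates. As levels these were 23.5, 18.5 and 19.8 CPM with dox and 12.2, 6.91 and 10.6 CPM without. The lowest dox-treated library was above the highest untreated one. The means of 20.6 ± 2.57 CPM and 9.92 ± 2.73 CPM (SD, n = 3 each) lay apart by more than the spread in either group. The difference between the mean log2 values was 1.09, or 2.12-fold (SE 0.24, interval 0.51 to 1.67, adjusted p = 0.0488, limma), and the exact permutation test gave p = 0.1. The call stood close to the threshold: it remained without dox-treated replicate 3 (adjusted p = 0.0452, limma) and was lost without any other library. The adjusted p in limma was then 0.156 without dox-treated replicate 1 and 0.138 without dox-treated replicate 2. Leaving out untreated replicate 1, 2 or 3 gave 0.0759, 0.0780 and 0.123 in limma. The fold change stayed between 0.85 and 1.26 on the log2 scale in these 6 fits.

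*Bbc3*, at chr7:16894965-16903554 on the plus strand, encodes Puma, a BH3-only protein that triggers the mitochondrial pathway of apoptosis. The dox-treated replicates held 170, 133 and 146 reads, or 12.6, 9.94 and 9.40 CPM, and the untreated replicates held 77, 74 and 83 reads, or 6.03, 5.51 and 7.60 CPM. All dox-treated libraries were above all untreated ones, and the means were 10.6 ± 1.69 CPM and 6.38 ± 1.09 CPM (SD, n = 3 each). A log2 fold change of 0.74 (SE 0.18, interval 0.30 to 1.17) fell short of the threshold (adjusted p = 0.0605, limma, and exact permutation p = 0.1). Leaving out dox-treated replicate 3 gave 0.82, which was called (adjusted p = 0.0362, limma).

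*Pmaip1*, which encodes Noxa, another BH3-only protein, had few reads, with 20, 18 and 7 after dox and 10, 4 and 18 without it. The groups overlapped over nearly their whole range. At this depth the log2 fold change of 0.38 had an interval from -1.36 to 2.11 (SE 0.71, adjusted p = 0.745, limma), so that neither a rise nor a fall could be told from 0. *Phlda3*, at chr1:137662696-137665713 on the plus strand, encodes a protein that holds back the survival kinase Akt. It had 110, 70 and 144 reads with dox and 102, 216 and 76 without, which are 8.14, 5.25 and 9.27 CPM and 7.97, 16.0 and 6.96 CPM. Untreated replicate 2 was the highest library, and the other 5 lay between 5.25 and 9.27 CPM. The log2 fold change was -0.39 (SE 0.38, interval -1.31 to 0.53, adjusted p = 0.519, limma) and moved to -0.02 without untreated replicate 2.

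*Sesn1*, at chr10:41530380-41628230 on the plus strand, encodes a sestrin that limits mTORC1 signaling. It was the steadiest of the 10 genes in untreated MEPs, at 45.4, 44.1 and 44.0 CPM, and stood at 46.1, 44.7 and 54.5 CPM with dox. Dox-treated replicate 3 was the one library above the rest, and the log2 fold change was 0.12 (SE 0.12, interval -0.16 to 0.40, adjusted p = 0.522, limma). *Zmat3*, at chr3:32233718-32264600 on the minus strand, encodes an RNA-binding protein that regulates splicing. Its levels were 22.7, 22.6 and 36.6 CPM in the dox-treated and 19.1, 16.9 and 19.5 CPM in the untreated replicates. The groups did not overlap, and dox-treated replicate 3 was far above the other two. The difference of 0.53 on the log2 scale (SE 0.22, interval -0.00 to 1.05) missed the threshold (adjusted p = 0.171, limma) and was 0.30 without that library (adjusted p = 0.0836, limma). *Zmat3* and *Ccng1*, the genes with the closest elements shown above, thus had log2 fold changes of 0.53 and -0.11.

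**Figure D2:**
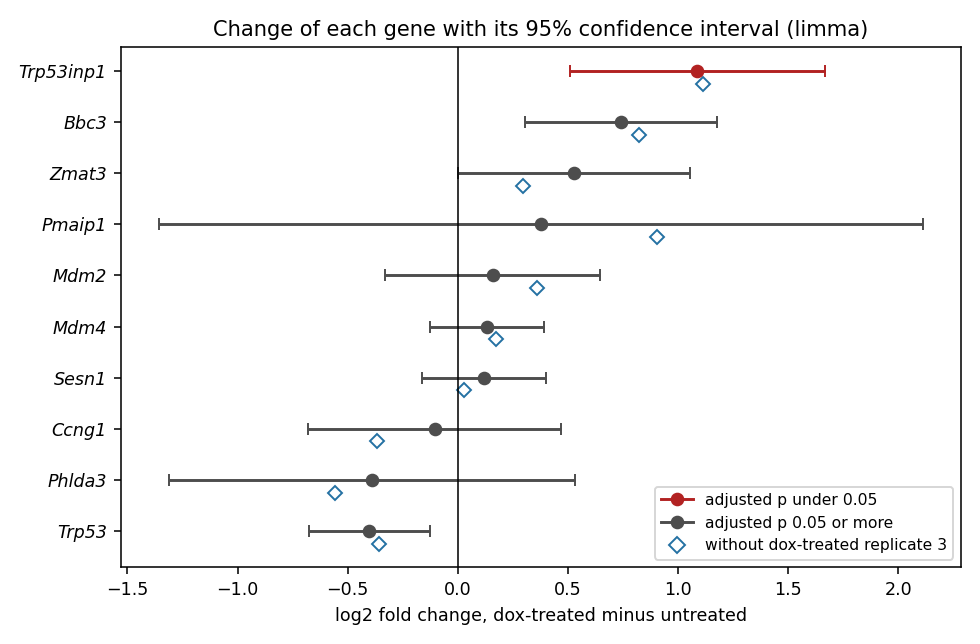
Log2 fold change of each gene, dox-treated minus untreated, with its 95% confidence interval from limma (circles and bars), and the value without dox-treated replicate 3 (open diamonds). *Trp53inp1*, at 1.09, is the one gene with an adjusted p under 0.05; *Mdm2* moves from 0.16 to 0.36 and *Ccng1* from -0.11 to -0.37 when dox-treated replicate 3 is left out.

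The 3 dox-treated libraries were not alike over these genes. Against the mean of dox-treated replicates 1 and 2, dox-treated replicate 3 was more than 0.5 higher on the log2 scale for 3 of the 10 genes, *Ccng1* (0.78), *Zmat3* (0.69) and *Phlda3* (0.50). It was more than 0.5 lower for *Pmaip1* (-1.58) and *Mdm2* (-0.60). Over all genes tested, 9.68% were more than 0.5 higher in that library and 21.6% more than 0.5 lower. For *Trp53inp1*, *Trp53* and *Mdm4* this difference was -0.07, -0.13 and -0.13. The summed level of 10 cell cycle genes that p53 represses through p21 and the DREAM complex also set this library apart, at 1628 CPM against 1095 and 1104 CPM in dox-treated replicates 1 and 2 and 1514 to 1721 CPM in the untreated libraries. The part of this library's other differences in the values of the 10 genes was not tested.

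**Figure D3:**
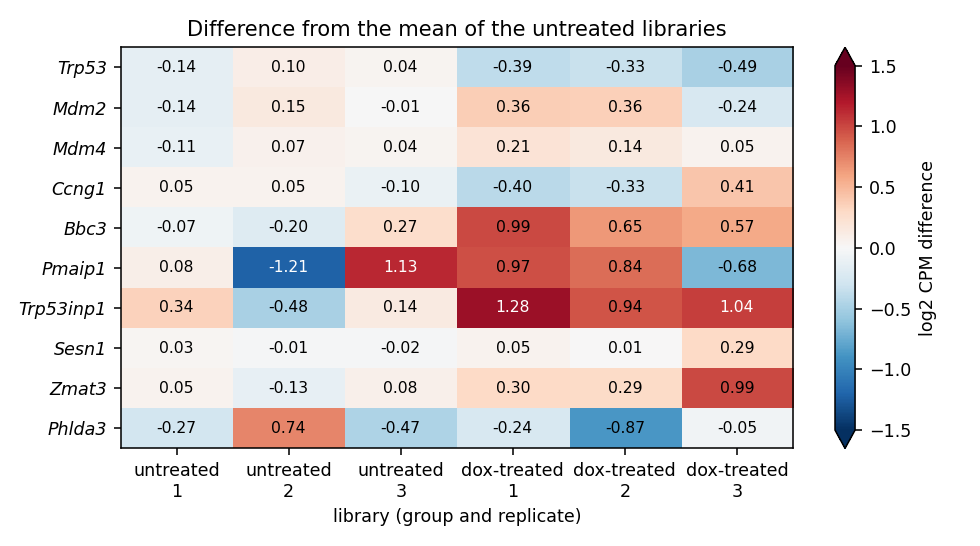
Log2 CPM of each gene in each library minus the mean of the 3 untreated libraries; red is higher, blue is lower, and the value is printed in each cell. *Ccng1* is -0.40 and -0.33 in dox-treated replicates 1 and 2 but 0.41 in dox-treated replicate 3, and *Trp53inp1* is 0.94 to 1.28 in all 3.

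Per length of the longest annotated transcript, *Trp53* was the most abundant of the 10 genes in untreated MEPs, at 108 ± 8.91 CPM per kilobase (SD, n = 3). It was followed by *Ccng1* at 39.7 ± 2.33, *Mdm4* at 31.2 ± 2.01, *Mdm2* at 15.3 ± 1.52 and *Sesn1* at 14.0 ± 0.244 CPM per kilobase. The lower levels were those of *Phlda3* at 7.18 ± 3.45, *Bbc3* at 3.51 ± 0.600, *Zmat3* at 2.37 ± 0.181, *Trp53inp1* at 1.83 ± 0.503 and *Pmaip1* at 0.357 ± 0.259 CPM per kilobase. Only *Mdm2* and *Sesn1*, and *Zmat3* and *Trp53inp1*, were neighbors in this order whose untreated libraries overlapped. *Trp53* and its inhibitors were thus at higher levels than the genes of cell death, on this scale. In dox-treated MEPs the order was the same for the first 5 genes, with *Trp53* at 82.0 ± 4.50 CPM per kilobase. *Bbc3* at 5.86 then stood before *Phlda3* at 5.26, and *Trp53inp1* at 3.79 before *Zmat3* at 3.50 CPM per kilobase.

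The other genes of the pathway were taken from lists of p53 regulators and of p53 targets for arrest, death, repair and metabolism, which together named 64 genes, of which 56 were listed. Of these 56, 3 were called higher and 1 lower, beside 4.59% and 3.18% of all genes, and 52 did not pass. Their median log2 fold change was 0.10. Without dox-treated replicate 3, 11 were called higher and 8 lower, beside 14.9% and 14.0% of all genes. The calls made with all libraries were 2 repair genes and 1 metabolic gene that were higher and 1 metabolic gene that was lower. The metabolic gene called higher, *Ephx1*, reached 1 CPM only in the dox-treated libraries and passed the filter through them alone. None of the 4 calls held when any 1 of the other libraries was left out, except that *Sesn2* stayed called without untreated replicate 3 (adjusted p = 0.0448, limma). *Ddb2* was also not called under quantile normalization (adjusted p = 0.120, limma) or with voom weights (adjusted p = 0.0506, limma), nor *Ephx1* with voom weights (adjusted p = 0.225, limma).

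**Figure D4:**
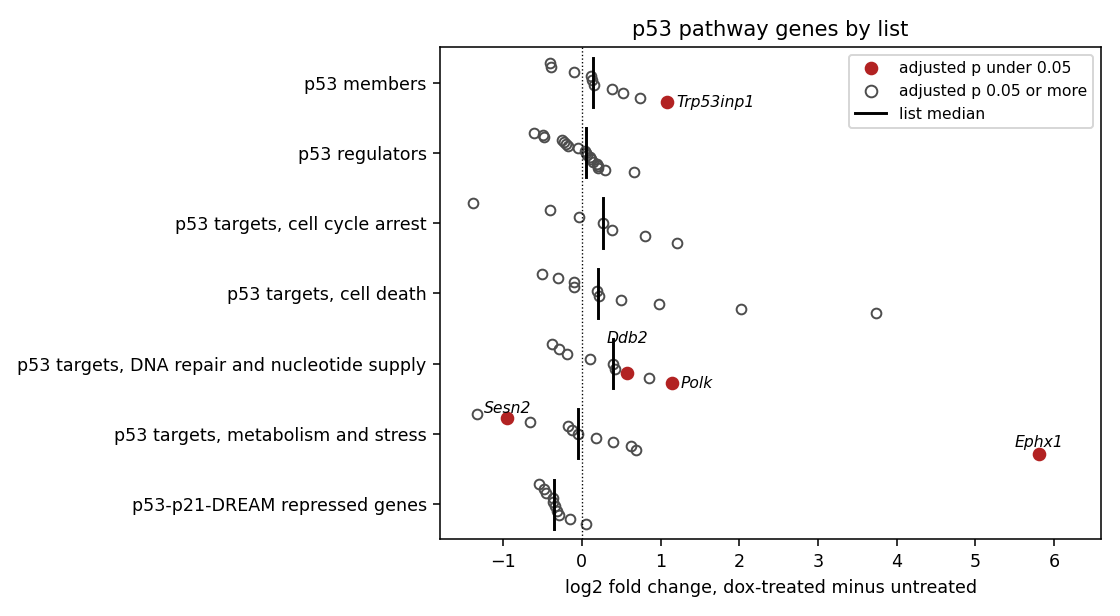
Log2 fold change, dox-treated minus untreated, of each listed gene of the p53 pathway by list; filled red points have an adjusted p under 0.05 in limma, and the black line is the median of each list. The list medians run from -0.35 for the genes repressed through p21 and DREAM to 0.39 for the repair genes, and 5 genes are called.

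None of 19 listed regulators of p53 was called in limma, and the median log2 fold change was 0.05. At an unadjusted p under 0.05, 1 was higher and 3 lower, where 15.6% and 13.6% of all genes were. Leaving out dox-treated replicate 3, 2 were called higher and 3 lower, beside 14.9% and 14.0% of all genes. *Usp10*, which encodes a deubiquitinase that stabilizes p53, was at 122, 119 and 124 CPM with dox and at 163, 223 and 174 CPM without. Those groups did not overlap, and the log2 fold change was -0.60 (adjusted p = 0.0600, limma). The kinase genes *Trp53rk* and *Chek1* were both at -0.49 (adjusted p = 0.0770 and 0.116, limma), and *Hipk2*, which encodes a kinase that phosphorylates p53 for apoptosis, was at 0.66 (adjusted p = 0.115, limma). *Trp53bp1*, which encodes a DNA repair protein that binds p53, was at 0.21 (adjusted p = 0.226, limma). *Cdkn2a*, the gene of the Mdm2 inhibitor Arf, and the relatives *Trp63* and *Trp73* were not among the listed genes.

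Of 7 listed targets for cell cycle arrest none was called in limma, and the median log2 fold change was 0.27. At an unadjusted p under 0.05, 2 were higher and 2 lower, beside the same 15.6% and 13.6% of all genes. Without dox-treated replicate 3, 2 were called higher and 1 lower, again beside 14.9% and 14.0% of all genes. *Cdkn1a* had 53, 22 and 34 reads with dox and 39, 33 and 22 without. Its groups overlapped throughout, at 2.61 ± 1.18 CPM and 2.53 ± 0.514 CPM (SD, n = 3 each), and the log2 fold change was -0.03 (interval -0.86 to 0.80, adjusted p = 0.959, limma). The interval still allows a change of about 0.8 on the log2 scale in either direction. The antiproliferative genes *Btg1* and *Btg2* were at 0.80 (adjusted p = 0.0605, limma) and 1.21 (adjusted p = 0.105, limma), with no overlap between groups for either. Both were called without dox-treated replicate 3, at 0.86 (adjusted p = 0.0442, limma) and 1.61 (adjusted p = 0.0165, limma). *Gadd45a*, a growth arrest gene, was at -0.41 (adjusted p = 0.116, limma) and was called at -0.53 without that library (adjusted p = 0.0212, limma). The phosphatase gene *Ptprv* was at -1.38 (adjusted p = 0.142, limma) and the kinase gene *Plk3* at 0.27 (adjusted p = 0.470, limma).

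Of 10 listed targets for cell death none was called in limma, and the median log2 fold change was 0.21. At an unadjusted p under 0.05, 2 were higher and 1 lower, a share close to that of all genes. With dox-treated replicate 3 left out, *Fas* was called higher and *Aen* and *Siva1* lower, where 14.9% and 14.0% of all genes were. *Fas*, which encodes a death receptor, had 39, 34 and 18 reads with dox and 8, 3 and 8 reads without. *Perp*, which encodes a membrane protein of desmosomes and apoptosis, had 23, 48 and 24 reads with dox and 4, 0 and 3 without. Neither gene's groups overlapped, both rested on few reads, and neither log2 fold change passed the test, at 2.02 for *Fas* (adjusted p = 0.0725, limma) and 3.74 for *Perp* (adjusted p = 0.0644, limma). Both, the 2 genes counted as higher above, reached 1 CPM only in the dox-treated libraries. They thus passed the filter only through the group where they are high. The exonuclease gene *Aen* was at -0.51 (adjusted p = 0.0626, limma) and *Siva1*, which encodes an apoptosis-inducing factor, at -0.31 (adjusted p = 0.326, limma). The receptor gene *Eda2r* was at 0.99 (adjusted p = 0.325, limma), with 21, 16 and 79 reads after dox and 9, 24 and 10 without it, and at 0.36 without dox-treated replicate 3.

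The repair and nucleotide supply list had 2 of 9 genes called higher and 0 lower, beside 4.59% and 3.18% of all genes, and a median of 0.39. At an unadjusted p under 0.05, 5 were higher and 1 lower, where 15.6% and 13.6% of all genes were. Without dox-treated replicate 3 the counts were 4 and 1, beside 14.9% and 14.0%. *Polk*, which encodes a DNA polymerase that copies past damaged bases, had 395, 370 and 261 reads with dox and 135, 144 and 121 without. It rose from 10.8 ± 0.267 to 24.5 ± 6.72 CPM (SD, n = 3 each), by 1.15 on the log2 scale (SE 0.23, adjusted p = 0.0400, limma), with every dox-treated library above the untreated ones. *Ddb2*, which encodes a sensor of ultraviolet damage, rose from 12.8 ± 1.25 to 19.0 ± 0.970 CPM, by 0.58 on the log2 scale (SE 0.12, adjusted p = 0.0421, limma). It had 256, 243 and 312 reads with dox and 173, 182 and 124 without. Among the rest, *Rrm2b*, a ribonucleotide reductase subunit gene, was at 0.42 (adjusted p = 0.154, limma), *Dcxr*, which encodes a xylulose reductase, at 0.39 (adjusted p = 0.0968, limma) and *Triap1*, which encodes a mitochondrial survival protein, at -0.38 (adjusted p = 0.103, limma).

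Of the 11 targets for metabolism and stress, 1 was called higher and 1 lower, with a median of -0.06, and without dox-treated replicate 3 the counts were 2 and 1. The shares of all genes were 4.59% and 3.18%, and 14.9% and 14.0% without that library. At an unadjusted p under 0.05, 4 of the 11 were higher and 2 lower, beside 15.6% and 13.6% of all genes. *Sesn2*, a sestrin gene like *Sesn1*, fell from 29.8 ± 5.82 to 15.2 ± 0.757 CPM (SD, n = 3 each), with a log2 fold change of -0.95 (SE 0.17, adjusted p = 0.0333, limma). Its reads numbered 197, 215 and 235 with dox and 407, 465 and 255 without, with no overlap in CPM. *Ephx1*, which encodes an epoxide hydrolase, was close to silent in untreated MEPs, with 6, 1 and 2 reads, and had 392, 463 and 35 reads with dox. Its log2 fold change of 5.81 (SE 1.16, adjusted p = 0.0408, limma) depends on the 0.5 reads added to so few, and dox-treated replicate 3 was far below the other two. It was 7.08 without dox-treated replicate 3 and 5.12 without dox-treated replicate 2 (adjusted p = 0.00691 and 0.135, limma). *Ephx1* reached 1 CPM only in the dox-treated libraries, so it passed the filter only through the group where it is high. *Abhd4*, a lipase gene, was at 0.69 (adjusted p = 0.0723, limma), *Gls2*, which encodes a glutaminase, at 0.40 (adjusted p = 0.0974, limma) and *Dram1*, an autophagy gene, at -1.33 (adjusted p = 0.0916, limma).

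None of 10 cell cycle genes repressed through p21 and DREAM was called in limma, with 3 lower and 0 higher at an unadjusted p under 0.05, where 13.6% and 15.6% of all genes were. In this list 9 of the 10 log2 fold changes were negative, as were 6367 of all 12088, and the median was -0.35. *Plk1*, a mitotic kinase gene, was at -0.54 (adjusted p = 0.0695, limma), and *Ccna2*, the gene of cyclin A2, at -0.48 (adjusted p = 0.218, limma). The mitotic genes *Bub1b* and *Cdc20* and the transcription factor gene *Mybl2* were at -0.45, -0.34 and -0.36 (adjusted p = 0.212, 0.170 and 0.130, limma). With dox-treated replicate 3 left out, 8 of the 10 were called lower, beside 14.0% of all genes.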

How the data were processed

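RNA from sorted MEPs of 3 dox-treated and 3 untreated *Nanog*-tg mice or pools was sequenced. The authors trimmed adapters with Cutadapt, used RSEM with Ensembl transcripts of NCBIM37, normalized with limma, and deposited log2 CPM values (counts per 1000000 reads, 0.5 reads added first). The scaling of library sizes, any filter on weakly expressed genes and strand use are not given in the sources used here. Reads were recovered from the deposited log2 values, and 100% came out whole within 1e-06 reads. They served for depth and for voom weights, and precision limits based on them cover counting error only.

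limma 3.58.1 (R 4.3.3; lmFit and eBayes, no block or weights) was fitted to 12088 genes that reached 1 CPM in 3 or more libraries, and p-values were adjusted by Benjamini–Hochberg (threshold 0.05). Fold changes include the 0.5 reads added, which understates changes of low genes. Exact permutation tests were two-sided. The fit was tested on simulated data in which no library stood apart, so that test does not cover dox-treated replicate 3. Sequences and positions came from the NCBIM37 genome and the Ensembl 65 annotation, which held 12067 of the 12101 genes. The genes and lists were chosen with earlier results of these data known. All 10 genes, *Nanog*, *Cdkn1a*, the 5 smallest p-values of each p53 list and the 3 smallest of each cell type list may be named. Alternatives changed the block, filter, variance model, weights, scaling and pseudocount, and left out each library.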

Additional observations from a re-analysis of the deposited data

How the results depend on the processing

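Over 14 alternatives, 125 of 140 log2 fold changes of the 10 genes kept their direction and their side of the threshold. 6 were past it only in the reported fit, all of *Trp53inp1*, whose adjusted p ran from 0.0107 to 0.156 in limma. Another 6 were past it only in an alternative, and 3 changed sign: *Ccng1* without dox-treated replicates 1 and 2 (0.041 and 0.0074, over a range of -0.37 to 0.041 as each library was left out) and *Pmaip1* without untreated replicate 2 (-0.23, over a range of -0.23 to 0.94). Leaving out each library gave 92 to 1801 genes called higher and 36 to 1687 lower (555 and 384 as reported), 0 to 2 and 0 to 1 of the 10 genes, and 0 to 11 and 0 to 8 of the 56 pathway genes. Array quality weights gave 2515 higher and 2601 lower, with 3 (*Trp53inp1*, *Bbc3* and *Mdm2*) and 1 (*Trp53*) of the 10 genes and 18 and 13 of the pathway genes. A mean-variance trend gave 909 and 747, with 1 of the 10 genes lower (*Trp53*) and 6 and 3 pathway genes. Quantile normalization and voom weights gave 2 and 3 pathway genes lower, against 1. With a replicate block the counts were 53 and 29, with 0 of the 10 genes and 0 pathway genes in either direction. Whether the replicate numbers pair the samples is not known. After each group's mean was subtracted, the libraries numbered 1, 2 and 3 correlated across groups at 0.018, -0.12 and -0.30 over genes. With 3 libraries per group, and dox-treated replicate 3 apart from its group, these correlations cannot decide it. No filter, median centring and 2 added reads kept each of these counts within 1.5 times. The cause of these shifts was not tested. Depth limits *Pmaip1*, *Perp*, *Fas* and *Cdkn1a*, with at most 53 reads in any library.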
